A study of Mus musculus with 12 samples.

Results

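The genes described here are 35 voltage-gated and related ion channel genes that set how cerebellar neurons fire. They were chosen by symbol from a list of calcium, potassium, HCN and sodium channel subunits and their partners. The choice was made with earlier results of these data known. All 35 were found among the 57010 genes counted, and all 35 were among the 19166 genes with enough counts to be tested. They were measured by bulk RNA sequencing of total RNA from mouse cerebellum, which the title of the series places in crus 1, a lobule of the lateral hemisphere. The samples were 4 from FVB mice given saline, 4 from Fmr1 knockout mice given saline, whose titles call them sham, and 4 from Fmr1 knockout mice given poly(I:C). Fmr1 encodes FMRP, which binds many neuronal mRNAs and whose absence underlies fragile X syndrome, and FVB is the inbred strain named as the background. Poly(I:C), double-stranded RNA made in the laboratory and used to imitate a virus, was injected into the peritoneum. The labels give no age, dose, time after injection or targeted allele, and they do not tie samples to separate animals, so the p-values below may measure technical spread only. No FVB sample received poly(I:C), so a difference between treated knockout and FVB joins genotype and treatment, which cannot be told apart there.

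The libraries held 35.2 to 56.4 M counts, and all members had counts in all of them. The knockout label was checked on Fmr1, whose levels in counts-per-million of the tested genes (CPM) were 85.5 to 108 for FVB, 27.9 to 36.8 for saline-treated and 33.9 to 36.0 for poly(I:C)-treated knockout libraries. Neither knockout group overlapped FVB. Of 10 interferon response genes all 10 were called higher in the treated than in the saline knockout, and their summed level was 387.6 to 506.5 CPM against 39.6 to 58.8 CPM. The genes listed as markers of Purkinje cells (15 of 15) and granule cells (12 of 12) were detected in all libraries. In 3 libraries choroid plexus markers stood far above the rest: the sum of 14 such genes was 4530 CPM for saline knockout 2, 2447 CPM for treated knockout 2 and 2900 CPM for treated knockout 3, while the others had 35.9 to 108 CPM. Ttr, a main choroid plexus transcript, exceeded 1000 CPM in those 3 libraries, so each call below is also given without them, which left 4, 3 and 2 libraries in the groups.

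Cerebellar output is a spike rate. Purkinje cells fire spontaneously, without synaptic drive, and their rate is the signal that reaches the deep nuclei. Sodium channels start each spike, high-threshold calcium channels open during it, and fast Kv3 and calcium-activated potassium channels end it and shape the pause that follows. Low-threshold calcium channels, HCN channels, Kv1 and Kv4 channels and tandem-pore leak channels act between spikes and set how soon the next one comes. Mutations of several of these genes, among them Cacna1a, Kcnd3, Fgf14 and Kcna1, cause inherited ataxias in people, in which movement is badly coordinated. FMRP is itself known as an RNA-binding regulator of channel transcripts and of some channel proteins.

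The sequences just upstream of the start sites of Kcnd3 and Kcnk1 are shown because these were the members that differed between the saline knockout and FVB. Both come from RefSeq on GRCm38.p6, from the C57BL/6J reference and not from these FVB mice, and each line gives the 250 bases before the annotated start, with CpG dinucleotides in capitals. The Kcnd3 stretch, chr3:105451640-105451889 on the plus strand, was 62.8% G or C and held 18 CpG. The Kcnk1 stretch, chr8:125994852-125995101 on the plus strand, was 44.4% G or C and held 0 CpG.
Kcnd3: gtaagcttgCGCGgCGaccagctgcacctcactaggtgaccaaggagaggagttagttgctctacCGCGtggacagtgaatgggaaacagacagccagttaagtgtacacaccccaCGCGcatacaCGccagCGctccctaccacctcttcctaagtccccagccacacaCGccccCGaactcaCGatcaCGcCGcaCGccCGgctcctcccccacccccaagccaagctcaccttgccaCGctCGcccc
Kcnk1: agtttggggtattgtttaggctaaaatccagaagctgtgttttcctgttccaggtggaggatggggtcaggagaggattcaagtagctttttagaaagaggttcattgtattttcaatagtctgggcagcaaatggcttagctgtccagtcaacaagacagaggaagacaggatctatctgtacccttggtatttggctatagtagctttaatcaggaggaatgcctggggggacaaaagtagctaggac
The Kcnd3 stretch is rich in CpG and the Kcnk1 stretch has none. RefSeq windows were matched for 28 of the 35 members, in 44 windows, and not for Cacna1a, Cacna1g, Kcna1, Kcnn2, Kcnq3, Hcn3 or Kcnk9. The median upstream stretch of members was 60.6% G or C with 8.5 CpG, against 52.4% and 6 CpG over 32851 windows of all genes. On either strand, GGGCGG was present in 40.9% of member windows against 32.7% of all, TATAAA in 4.55% against 12.4%, and TGACGTCA, which reads the same on both strands, in 0% against 1.55%. Neither printed stretch held GGGCGG or TATAAA. Such matches describe letters only, and no binding was measured.

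In FVB the members spanned a wide range of levels when set per length, as CPM per kilobase of merged exon. The sodium channel beta subunit Scn2b stood highest at 108.6 ± 8.63 CPM per kilobase (SD, n = 4). Next came the leak channel Kcnk1 at 82.2 ± 8.15 and the Kv3 subunit Kcnc1 at 70.3 ± 3.87, whose SD intervals overlap each other but not that of Scn2b. The Kv4 pore subunit Kcnd2 followed at 59.2 ± 1.40 and the Kv1 subunit Kcna2 at 40.7 ± 1.48. Among pore subunits of calcium channels, the T-type Cacna1g at 35.7 ± 1.62 and the P/Q-type Cacna1a at 30.4 ± 1.21 lay far above the R-type Cacna1e at 6.70 ± 1.35 and the L-type Cacna1d at 4.82 ± 0.339 and Cacna1c at 4.18 ± 0.756. The spreads of the last 2, Cacna1d and Cacna1c, overlap. Their partners Cacnb4, a beta subunit, and Cacna2d2, an alpha2delta subunit, stood at 33.1 ± 2.80 and 25.7 ± 0.693.

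Within families the subunits were unequal. In the Kv3 family Kcnc1 was followed by Kcnc4 at 14.6 ± 0.877 and Kcnc2 at 1.01 ± 0.160 CPM per kilobase. In the Kv4 group Kcnd3 stood at 14.9 ± 0.664, below Kcnd2, and the KChIP subunit Kcnip4 at 38.7 ± 5.36 lay above Kcnip1 at 12.4 ± 1.31. Among hyperpolarisation-activated channels Hcn2 stood at 33.7 ± 4.27, Hcn3 at 2.01 ± 0.248 and Hcn4 at 0.906 ± 0.0979. The BK channel Kcnma1 stood at 19.6 ± 1.27, while its beta subunit Kcnmb4 stood at 1.17 ± 0.294 and the SK channels Kcnn2 and Kcnn1 at 4.98 ± 0.287 and 1.82 ± 0.0769. The pore-forming sodium subunits Scn8a and Scn1a were close to each other at 21.5 ± 0.674 and 21.2 ± 1.58, within their spread. The M-current subunit Kcnq5 was the lowest member at 0.154 ± 0.0140, against 2.22 ± 0.185 for Kcnq3.

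**Figure D1:**
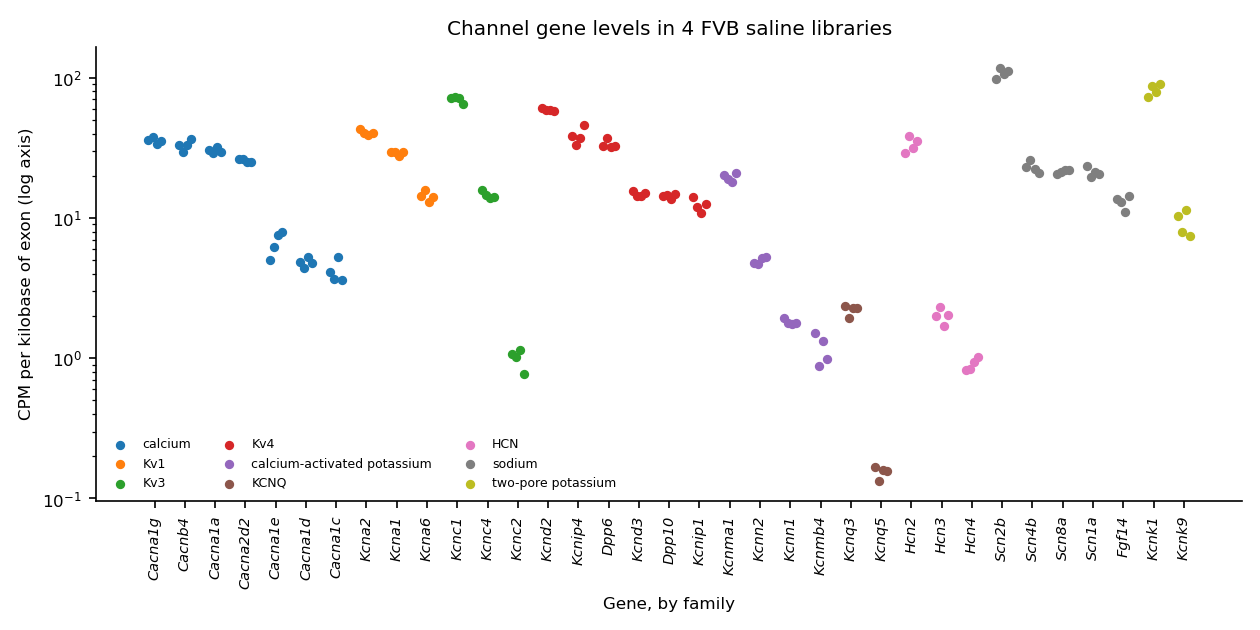
Level of each channel gene in the 4 FVB saline libraries, in CPM per kilobase of merged exon on a log axis, with genes grouped by family and 1 point per library. Scn2b, Kcnk1 and Kcnc1 lie at the top, and Kcnq5 lies below all other members.

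Most members varied little between libraries of a group. The coefficient of variation, the SD as a share of the mean CPM, had a median over the 35 genes of 7.94% for FVB, 8.95% for saline and 5.63% for treated knockout libraries. In the treated knockout it ran from 0.911% for Cacnb4 to 18.7% for Kcnq5. Kcnq5 was also the most variable in the saline knockout at 48.1%, where saline knockout 2, rich in choroid plexus markers, held 2.82 CPM against 1.15 to 1.38 CPM in the other 3. Saline knockout 4 was the lowest of its group in 18 of the 35 members, while it was the lowest in 29.4% of all tested genes.

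**Figure D2:**
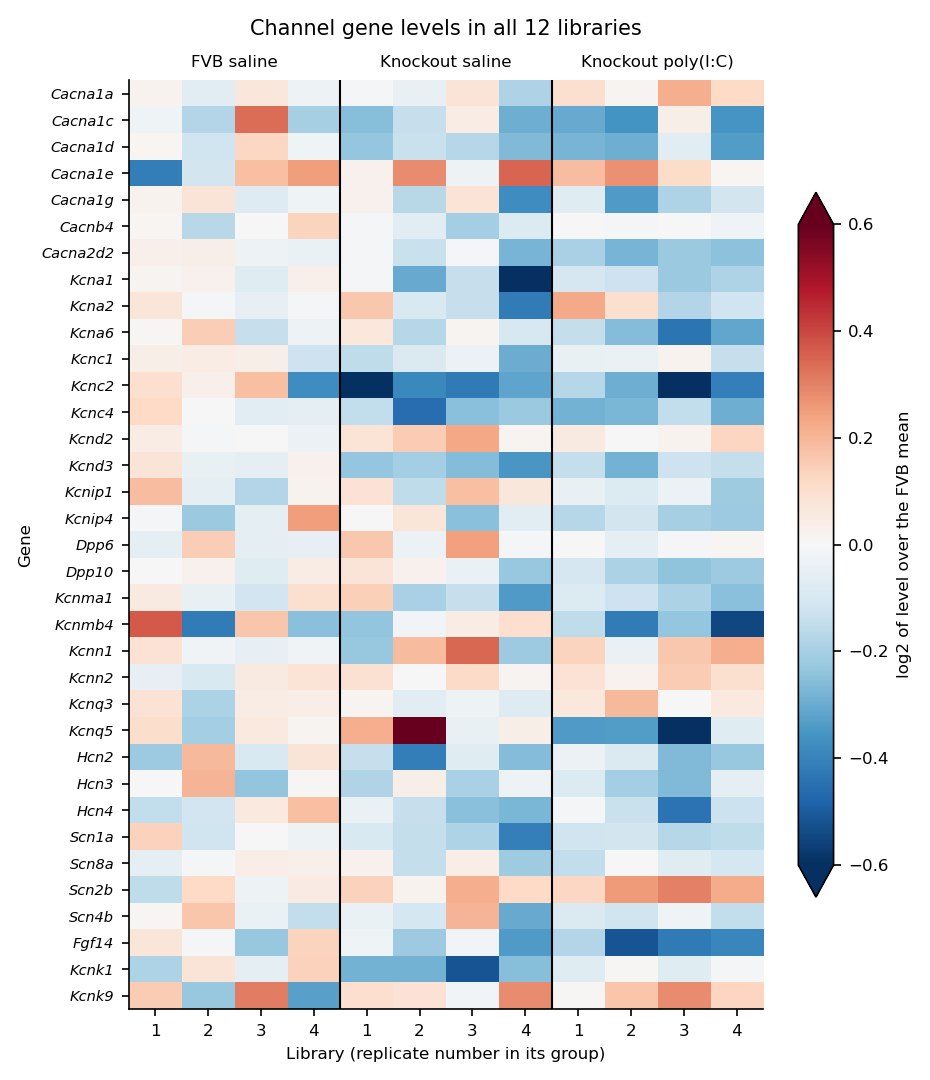
Level of each of the 35 channel genes (rows) in each of the 12 libraries (columns, by replicate number within the group), as log2 of the level over the FVB mean, from -0.6 in dark blue to 0.6 in dark red, with stronger values shown in the end colours. Kcnd3 and Kcnk1 are blue across the 4 saline knockout libraries, saline knockout 4 is blue in many rows, and Kcnq5 is dark red in saline knockout 2.

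The first comparison set the saline knockout against FVB. The members were mostly slightly lower in the knockout: 26 of 35 had a negative log2 fold change, against 49.1% of all tested genes. The median of the members was -0.09 against 0.00 over all genes. Kcnd3 and Kcnk1 fell, 2 of 35 members, where 0.720% of all tested genes were called lower. No member was called higher by edgeR, DESeq2 or limma-voom, where edgeR called 0.814% of all genes higher, and 0 members were higher at an unadjusted p under 0.05 by edgeR. The groups did not overlap for 4 members, Cacna1d, Kcnc4, Kcnd3 and Kcnk1, all lower in the knockout, against 7.02% of all genes in either direction. Without saline knockout 4, 23 members had a negative value and their median was -0.05.

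Kcnd3 encodes a pore subunit of Kv4 channels, which carry the transient A-type current that delays spikes. It was measured at 150.4, 138.1, 136.7 and 145.0 CPM in FVB 1 to 4, at 121.2, 123.8, 119.0 and 111.9 CPM in knockout libraries 1 to 4 given saline, and at 129.1, 117.1, 131.0 and 129.2 CPM in those given poly(I:C). All 8 knockout libraries lay below all 4 FVB libraries. The saline knockout fell by 0.26 on the log2 scale (SE 0.0581, edgeR adjusted p = 0.0273), a mean of 119.0 ± 5.12 against 142.6 ± 6.37 CPM (SD, n = 4). In the treated knockout the difference from FVB was -0.17 (SE 0.0580, edgeR adjusted p = 0.0858), and between the knockout groups it was 0.09 (edgeR adjusted p = 0.502). The call in the saline knockout ended without the libraries rich in Ttr (-0.28, edgeR adjusted p = 0.0575). It also ended without FVB 1 or 4 or saline knockout 1, 3 or 4, taken singly, with log2 values from -0.27 to -0.23 and edgeR adjusted p from 0.0533 to 0.0942.

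Kcnk1 encodes a tandem-pore potassium channel of the leak type, abundant in granule cells. It stood at 161.8, 194.2, 176.6 and 202.6 CPM in FVB 1 to 4, at 151.0, 150.9, 128.2 and 154.2 CPM in knockout libraries 1 to 4 given saline, and at 174.7, 184.7, 174.7 and 182.6 CPM in those given poly(I:C). The saline knockout lay below both other groups with no overlap, and the treated libraries lay inside the range of FVB. Its fall against FVB was -0.33 (SE 0.0733, edgeR adjusted p = 0.0261), and its rise from saline to treated knockout was 0.29 (SE 0.0733, edgeR adjusted p = 0.0336). Against FVB the treated knockout differed by -0.04 (SE 0.0732, edgeR adjusted p = 0.824). Both calls use the same 4 saline knockout libraries, so a low level in them enters both with opposite signs.

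The direction of both Kcnk1 differences held under the alternatives run, while the calls did not. Without the libraries rich in Ttr the values were -0.35 and 0.31 and the calls ended (edgeR adjusted p = 0.0775 and 0.3202). The fall also ended without FVB 2, 3 or 4 or saline knockout 2 or 3, taken singly (edgeR adjusted p from 0.0541 to 0.1085). The rise ended without saline knockout 1, 2 or 3 or treated knockout 2, 3 or 4, taken singly (edgeR adjusted p from 0.0592 to 0.113). In both, the smallest difference came without saline knockout 3, the lowest library, at -0.27 and 0.24.

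A further 6 members had an unadjusted edgeR p under 0.05 in the genotype comparison without passing the adjustment, all with negative values. With the 2 called members, 22.9% of members had such a p, against 12% of all tested genes in either direction. In the Kv3 family, whose channels repolarise fast-spiking cells, Kcnc4 was at -0.27 (SE 0.0735, adjusted p = 0.0844) and did not overlap FVB, and Kcnc2 was at -0.43 (SE 0.148, adjusted p = 0.182). The Kv1 subunit Kcna1, found on basket cell terminals and axons, was at -0.26 (SE 0.103, adjusted p = 0.294). Saline knockout 4 held 86.0 CPM of Kcna1 against 112.7 to 138.2 CPM in the other 3, and without it the value was -0.15. The L-type calcium subunit Cacna1d was at -0.20 (SE 0.0719, adjusted p = 0.217), with all knockout libraries below all FVB libraries. The pacemaker channel Hcn2 was at -0.22 (SE 0.0903, adjusted p = 0.328), and the sodium channel Scn1a at -0.20 (SE 0.0699, adjusted p = 0.191). DESeq2 called Kcnc4 as well (adjusted p = 0.0262), so it called 3 members lower.

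**Figure D3:**
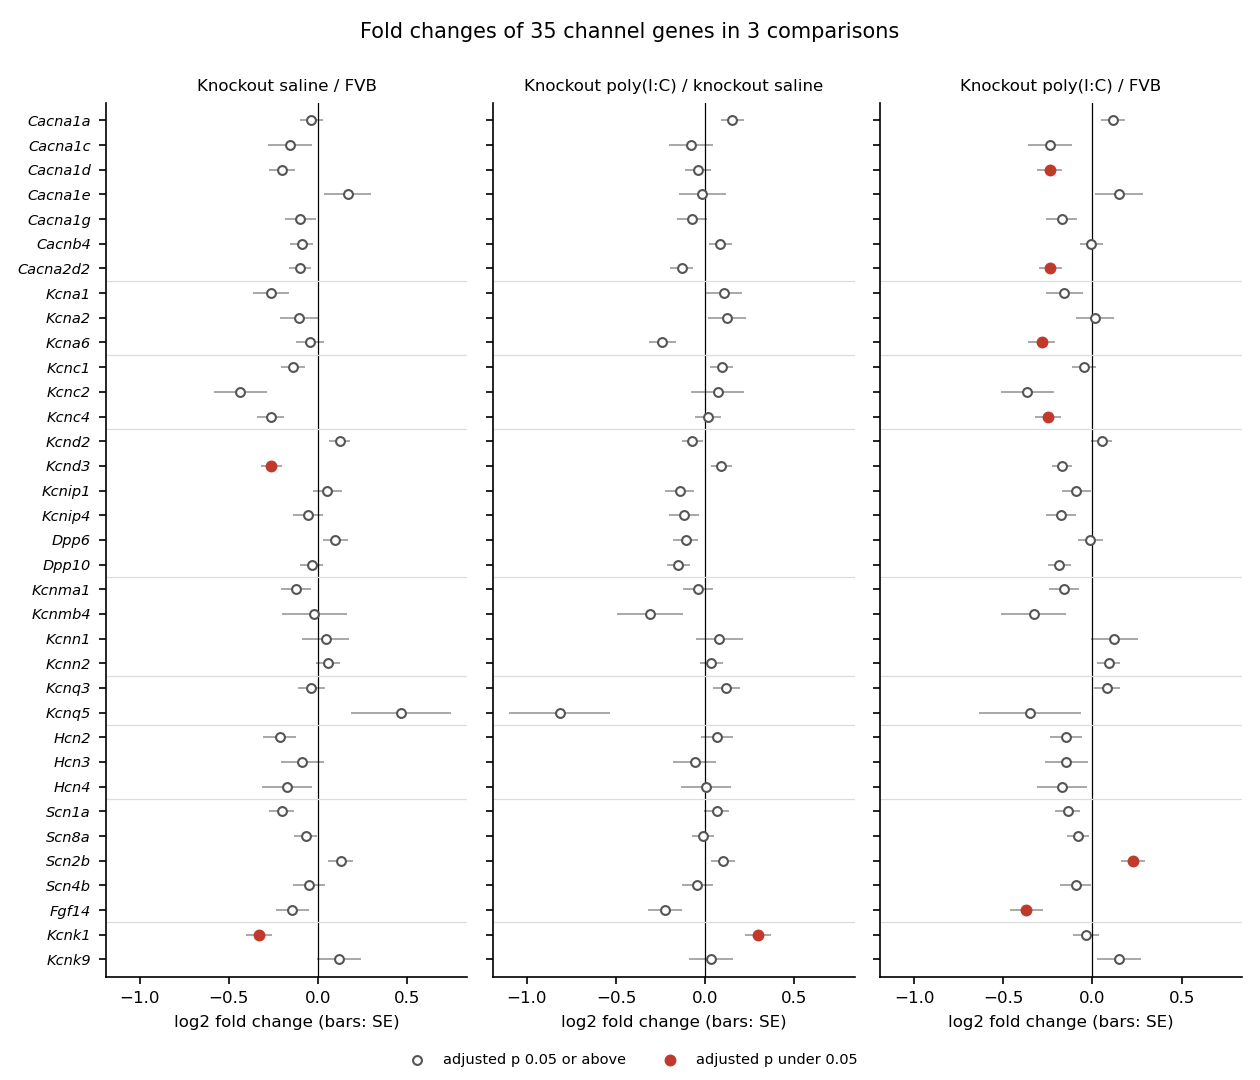
log2 fold change of each of the 35 channel genes in the 3 comparisons, with bars of 1 SE, open circles for edgeR adjusted p of 0.05 or above and filled red circles below it. Kcnd3 and Kcnk1 are filled at the left, Kcnk1 in the middle, and 6 genes at the right, of which only Scn2b lies above 0.

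The second comparison set the treated against the saline knockout and asks what differed after poly(I:C) within the Fmr1 knockout. Of the 35 members only Kcnk1 passed the test: it rose, and 0 members were called lower by edgeR, DESeq2 or limma-voom. Over all tested genes 1.81% were called higher and 1.06% lower. Negative values were found for 18 of 35 members, against 50.4% of all genes, and the median was -0.01. At an unadjusted p under 0.05 edgeR had 2 members higher and 5 lower, together 20% of members against 15.5% of all genes. The groups did not overlap for 2 members, Kcnk1 and Kcnq5, against 9.75% of all genes.

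The members short of the adjustment came from several families. The P/Q-type calcium subunit Cacna1a, the main calcium channel of Purkinje cells, was at 0.15 (SE 0.0652, edgeR adjusted p = 0.262). Its partner Cacna2d2 was at -0.13 (SE 0.0624, edgeR adjusted p = 0.314). The Kv1 subunit Kcna6 was at -0.24 (SE 0.0764, edgeR adjusted p = 0.108), the Kv4 partner Dpp10 at -0.15 (SE 0.0653, edgeR adjusted p = 0.268) and the sodium channel partner Fgf14 at -0.23 (SE 0.0936, edgeR adjusted p = 0.240). Kcnq5 had the greatest absolute value of the members, -0.82 (SE 0.283, edgeR adjusted p = 0.147), at a level of only 0.929 ± 0.173 against 1.64 ± 0.791 CPM (SD, n = 4). Its saline group is raised by saline knockout 2, and without that library the value was -0.42.

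The third comparison set the treated knockout against FVB. Cacna1d, Cacna2d2, Kcna6, Kcnc4 and Fgf14 fell, 5 of 35 members, where 3.24% of all tested genes were called lower. Scn2b rose, 1 of 35, where 3.81% of all genes were called higher. Again 26 of 35 members had a negative value, against 49.8% of all genes, and the median was -0.15 against 0.00. The groups did not overlap for 7 members, against 14.2% of all genes: Cacna2d2, Kcna1, Kcna6, Kcnc4, Kcnd3 and Dpp10 were lower and Scn2b higher. These values share FVB with the genotype comparison and the treated libraries with the second, so the 3 are not separate evidence. The largest of these changes was 1.29-fold. With all libraries 25.7% of members had an unadjusted edgeR p under 0.05, against 21.3% of all genes. Without the 3 libraries rich in Ttr no member was called by edgeR, although 6 members were lower and 1 higher at an unadjusted p under 0.05. With log2 Ttr as a covariate only Cacna1d was called.

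Among calcium channels, Cacna1d, an L-type pore subunit that opens at low voltage, stood at 61.4, 55.9, 66.2 and 59.8 CPM in FVB 1 to 4, at 51.8, 55.5, 54.0 and 50.7 CPM in knockout libraries 1 to 4 given saline, and at 50.2, 49.6, 58.0 and 48.2 CPM in those given poly(I:C). The treated libraries were below all FVB libraries except treated knockout 3, which lay above FVB 2. The difference was -0.24 (SE 0.0719, edgeR adjusted p = 0.0499). It lost its call by limma-voom, by RLE scaling, with no or a stricter count filter, without robust estimation and in a fit of these groups alone (adjusted p from 0.0505 to 0.0712). Left-out single libraries ended it too, namely FVB 1, 3 or 4, saline knockout 1, 2 or 3 and treated knockout 1, 2 or 4 (edgeR adjusted p from 0.0570 to 0.145), and without the libraries rich in Ttr it was at -0.30 (0.0848). Cacna1d overlaps Dcp1a on the opposite strand, whose counts came to 56.4% of its own and which was at 0.08 in this comparison (edgeR adjusted p = 0.597). Whether the counting used strand is not stated by the labels.

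Cacna2d2 encodes an alpha2delta subunit that carries calcium channels to the membrane and is typical of Purkinje cells. It was measured at 208.8, 209.8, 200.4 and 199.2 CPM in FVB 1 to 4, at 203.8, 186.4, 203.4 and 168.5 CPM in knockout libraries 1 to 4 given saline, and at 178.5, 168.7, 175.1 and 172.6 CPM in those given poly(I:C). All treated libraries lay below all FVB libraries, and the saline knockout was spread over both. The treated knockout was lower by a log2 difference of -0.24 (SE 0.0625, edgeR adjusted p = 0.0272), and the saline knockout differed from FVB by -0.10 (edgeR adjusted p = 0.571). The call ended without FVB 1 or 2 or treated knockout 2, 3 or 4, taken singly (edgeR adjusted p from 0.0646 to 0.0814), and without the libraries rich in Ttr (-0.22, 0.265). The other calcium subunits Cacna1a, Cacna1c, Cacna1e, Cacna1g and Cacnb4 passed in none of the 3 comparisons, with values between -0.24 and 0.17.

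In the Kv1 family, Kcna6 encodes a subunit of low-threshold delayed rectifiers. It stood at 85.5, 94.3, 77.4 and 83.5 CPM in FVB 1 to 4, at 88.9, 75.6, 86.2 and 79.7 CPM in knockout libraries 1 to 4 given saline, and at 77.1, 71.0, 62.8 and 68.7 CPM in those given poly(I:C). The treated libraries all lay below FVB, while the saline knockout overlapped both groups. Against FVB the treated knockout was at -0.28 (SE 0.0765, edgeR adjusted p = 0.0297), and the saline knockout at -0.04 (edgeR adjusted p = 0.890). The call ended without FVB 1, 2 or 4 or treated knockout 2, 3 or 4, taken singly (edgeR adjusted p from 0.0558 to 0.1175), and without the libraries rich in Ttr (-0.22, 0.309). Kcna2, the most abundant Kv1 member per length, was at 0.02, and Kcna1 at -0.16 with no overlap between the groups (edgeR adjusted p above the threshold for both).

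In the Kv3 family, Kcnc4 stood at 58.2, 53.7, 51.3 and 51.5 CPM in FVB 1 to 4, at 48.5, 39.0, 45.0 and 46.0 CPM in knockout libraries 1 to 4 given saline, and at 44.1, 44.4, 48.4 and 43.8 CPM in those given poly(I:C). All 8 knockout libraries lay below all FVB libraries. The treated knockout was at -0.25 against FVB (SE 0.0733, edgeR adjusted p = 0.0476), close to the saline knockout's -0.27, which missed the threshold. Limma-voom, both other count filters and the fit without robust estimation did not call it (adjusted p from 0.0502 to 0.0553). Nor did edgeR without any 1 of the FVB or treated libraries or saline knockout 3 (0.0559 to 0.134), or without the libraries rich in Ttr (-0.29, 0.0993). Kcnc1, whose level per length was the highest of the family, was at -0.05, and the sparse Kcnc2 at -0.36 (SE 0.147, edgeR adjusted p = 0.152).

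Sodium channel partners went in opposite directions. Scn2b, a beta subunit that modulates gating and surface level, stood at 455.6, 549.6, 495.0 and 522.7 CPM in FVB 1 to 4, at 556.3, 513.9, 587.8 and 550.0 CPM in knockout libraries 1 to 4 given saline, and at 551.3, 604.0, 623.0 and 589.9 CPM in those given poly(I:C). All treated libraries were above all FVB libraries, by a narrow margin between treated knockout 1 and FVB 2. The treated knockout was at 0.23 against FVB (SE 0.0676, edgeR adjusted p = 0.0491), and the saline knockout at 0.13 (edgeR adjusted p = 0.498). The call ended without robust estimation (0.0567), without FVB 1, 3 or 4, saline knockout 1 or 4 or treated knockout 2, 3 or 4, taken singly (edgeR adjusted p from 0.0508 to 0.1525), and without the libraries rich in Ttr (0.18, 0.408).

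Fgf14 encodes an intracellular fibroblast growth factor homologue that binds the tail of sodium channels and holds them at the spike-starting segment of the axon. It was measured at 57.1, 54.0, 46.4 and 59.6 CPM in FVB 1 to 4, at 53.3, 46.6, 53.6 and 42.8 CPM in knockout libraries 1 to 4 given saline, and at 48.0, 37.9, 40.4 and 41.4 CPM in those given poly(I:C). Treated knockout 1 lay above FVB 3, and otherwise all treated libraries were below FVB. It had the greatest fall of the called members, -0.37 (SE 0.0937, edgeR adjusted p = 0.0207), a mean of 41.9 ± 4.29 against 54.3 ± 5.75 CPM (SD, n = 4). The call ended without FVB 1, 2 or 4 or treated knockout 2, 3 or 4, taken singly (edgeR adjusted p from 0.0507 to 0.0759), and without the libraries rich in Ttr (-0.28, 0.325). The pore subunits Scn1a and Scn8a were at -0.14 and -0.08 and the beta subunit Scn4b at -0.09, none of which passed by edgeR.

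**Figure D4:**
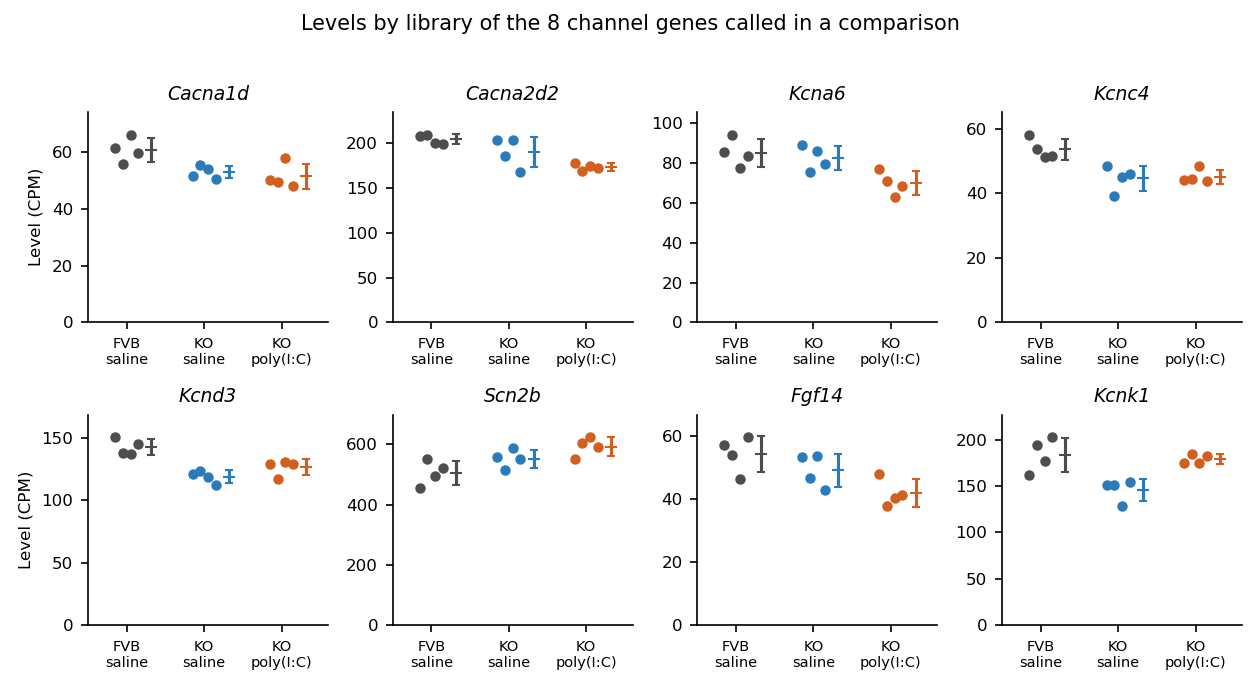
Level in CPM of the 8 channel genes called in any comparison, 1 point per library, with the group mean and SD beside the points and each axis starting at 0. The Kcnk1 points of the saline knockout lie below both other groups, Kcnd3 and Kcnc4 are lower in both knockout groups than in FVB, and Scn2b alone is higher in the treated knockout than in FVB.

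The members not yet described passed in no comparison. In the Kv4 group, Kcnd3 aside, Dpp10, a peptidase-like partner that speeds the channel, came nearest against FVB in the treated knockout at -0.19 (SE 0.0653, edgeR adjusted p = 0.0976) with no overlap, and passed without saline knockout 4 (0.0423). Kcnd2, the more abundant pore subunit, was at 0.12 in the saline and 0.05 in the treated knockout, while Kcnd3 was at -0.26 and -0.17. The KChIP subunits Kcnip1 and Kcnip4 and the partner Dpp6 lay between -0.17 and 0.10 over the 3 comparisons. The calcium-activated channels Kcnma1, Kcnn1 and Kcnn2 lay between -0.16 and 0.12, and Kcnmb4, at 2.67 to 5.03 CPM, between -0.33 and -0.02. Kcnmb4 overlaps Kcnmb4os2 on the opposite strand, whose counts came to 63.1% of its own, and Kcnq5 overlaps Gm7658 on its own strand, which held 389% as many counts. Hcn2, Hcn3 and Hcn4 lay between -0.22 and 0.07. Kcnq3 and the leak channel Kcnk9 lay between -0.04 and 0.15.

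Of 71 other channel genes, listed as the rest of the pathway, 70 were tested. Their shares called, 1.43% in the genotype, 2.86% in the treatment and 12.9% in the treated knockout against FVB comparison, stand beside 1.53%, 2.87% and 7.05% of all tested genes. In the same order, 22.9%, 18.6% and 31.4% of the 70 had an unadjusted edgeR p under 0.05, against 12%, 15.5% and 21.3% of all. Negative values were found for 58.6%, 54.3% and 58.6% of the 70, against 49.1%, 50.4% and 49.8% of all. The medians of the 70 were -0.05, -0.02 and -0.10. In the genotype comparison 0 were called higher (1 at an unadjusted p under 0.05 by edgeR) and 1 lower, the N-type calcium subunit Cacna1b at -0.26 (SE 0.0643, edgeR adjusted p = 0.0466). That call ended under 6 of 12 other settings. Among these were limma-voom, no count filter, a fit of these groups alone and log2 Ttr as a covariate (adjusted p from 0.0511 to 0.0725). Another was leaving out the libraries rich in Ttr (edgeR adjusted p = 0.172). The call also ended on leaving out any single library but saline knockout 1 or treated knockout 3 (edgeR adjusted p from 0.0563 to 0.154). In the treatment comparison 2 were called higher and 0 lower (6 lower at an unadjusted p under 0.05 by edgeR). Cacna1h, a T-type calcium subunit, held levels of 3.28, 2.62, 3.72 and 2.28 CPM in knockout libraries given saline and at 6.02, 5.78, 10.2 and 8.87 CPM in those given poly(I:C). These groups did not overlap, the log2 fold change was 1.38 (SE 0.199, edgeR adjusted p = 0.000223), and it was 1.27 without the libraries rich in Ttr (edgeR adjusted p = 0.00675). The treated level was also 1.10 above FVB (SE 0.197, edgeR adjusted p = 0.00153), whose libraries held 3.20 to 3.87 CPM, and was 1.05 above it without the libraries rich in Ttr (edgeR adjusted p = 0.0109). Its sister gene among the members, Cacna1g, was at -0.08 and -0.17 in the same comparisons and is the more abundant by far. The other gene called higher by treatment was Scn9a, a sodium channel, at 0.76 (SE 0.197, edgeR adjusted p = 0.0418), and this call ended without the libraries rich in Ttr (0.65, 0.518), and without saline knockout 2, 3 or 4 or any 1 treated library (0.0629 to 0.137).

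Against FVB, 8 of the 70 were called lower in the treated knockout and 1, Cacna1h, higher. The lower ones described here were Cacna1b (-0.31), the regulatory subunit Cacng5 (-0.29), the sodium channel beta subunit Scn3b (-0.62), the leak channel Kcnk2 (-0.49), the ERG-type potassium channel Kcnh2 (-0.30) and the silent modifier Kcns2 (-0.46). Cacna1b was the most abundant of these, at 50.6 against 62.9 CPM, and Scn3b the least, at 3.41 against 5.26 CPM. These 6 lost their call by edgeR without the libraries rich in Ttr (adjusted p from 0.0977 to 0.361), with log2 values from -0.60 to -0.23. Leaving out a single library left Cacna1b and Kcnk2 called each time, ended Kcns2 without FVB 2 (0.0620), and ended Cacng5, Scn3b and Kcnh2 without FVB 1, 2 or 4, saline knockout 1 or treated knockout 2, 3 or 4, and in part without others (up to 0.1605). Limma-voom did not call those last 3 either (0.0537 to 0.0783).

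Markers of the neurons that carry these channels were read beside the calls, because in bulk tissue fewer cells of a type and less RNA per cell cannot be told apart. The summed level of 15 Purkinje markers was 9786 to 11038 CPM for FVB, 9657 to 11572 CPM for saline and 9093 to 10188 CPM for treated knockout libraries. By edgeR 0 of the 15 were called in the genotype comparison (0 at an unadjusted p under 0.05), with a median of -0.02. In the treatment comparison 13 of 15 were negative, 6 were lower at an unadjusted p under 0.05 and 1 was called lower, with a median of -0.13. In the treated knockout 3 were called lower against FVB, with a median of -0.13. For 12 granule cell markers the sums were 7938 to 9000, 8276 to 8972 and 8164 to 8572 CPM, and edgeR called 0, 0 and 1 lower in the 3 comparisons, with medians of 0.00, -0.09 and -0.02 (2, 0 and 1 lower at an unadjusted p under 0.05). For 12 markers of molecular layer and Golgi interneurons the sums were 566.5 to 685.7, 512.0 to 619.4 and 552.4 to 596.8 CPM, and edgeR called 1, 0 and 3 lower, with medians of -0.12, -0.09 and -0.28 (4, 2 and 7 lower at an unadjusted p under 0.05). For 10 markers of deep nuclei and brainstem neurons, of which 8 were tested, the sums were 666.5 to 831.2, 662.9 to 732.1 and 715.9 to 823.5 CPM. Of those 8, 7 were negative in the genotype comparison with a median of -0.15, 0 were called there (2 lower at an unadjusted p under 0.05 by edgeR), and the medians were 0.10 and -0.06 in the other comparisons. For 10 endothelial and mural markers the sums were 382.7 to 486.2, 434.4 to 538.0 and 364.6 to 416.5 CPM, so the treated lay below the saline knockout with no overlap, where 10 of 10 were negative with a median of -0.24 and 1 was called lower. The ranges of the 4 neuronal sums overlap between groups, and no Purkinje, granule or interneuron marker was at 0 in any library, while 2 of the deep nuclei and brainstem markers, Chat and Slc6a2, were at 0 in at least 1 library of each group. Over all tested genes edgeR called 1.53%, 2.87% and 7.05% in the 3 comparisons, and 12%, 15.5% and 21.3% had an unadjusted p under 0.05. The part of these marker levels in the channel differences was not tested.

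The nearest tested genes around the called members are given by gene order, beside 1.53%, 2.87% and 7.05% of all tested genes called in either direction in the 3 comparisons. By edgeR 0 of the 20 nearest were called around Kcnd3 or around Kcnk1 in the genotype comparison. In the treatment comparison 0 of 20 were called around Kcnk1. Against FVB in the treated knockout, 0 of 20 were called around Cacna2d2, Kcna6 and Scn2b each and 0 of 11 around Fgf14, while 2 of 20 were called around Cacna1d (Tkt and Itih3) and 2 of 20 around Kcnc4 (AI504432 and Gstm7). With so few neighbours, these counts are near those shares and single out no locus.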

How the data were processed

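The authors deposited raw read counts per Ensembl gene as 1 table, made with Trim Galore, HISAT2 and featureCounts on GRCm39, per the submitters' processing notes. Versions, annotation, strand setting and the handling of multi-mapped reads are not stated there, which leaves overlapping and near-identical genes uncertain. Per the labels' protocols, TRIzol RNA was treated with DNase and made into TruSeq libraries. Groups came from the titles.

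Symbols and exon lengths came from GENCODE M21 (GRCm38), which named 52029 of 57010 genes, holding 99.4% of counts. Genes were kept by filterByExpr (minimum count 10, total 15) in edgeR 4.0.16, scaled by TMM and fitted with the robust quasi-likelihood model on 3 group means (9 residual degrees of freedom). Called means a Benjamini-Hochberg adjusted p under 0.05 over all 19166 tested genes. SE was taken from F as the size of the log2 fold change divided by its root. CPM uses TMM-scaled totals of tested genes.

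Alternatives were DESeq2 1.42.0, limma-voom 3.58.1, other scalings, filters and fits, a replicate block, and leaving out libraries. The code was tested on simulated counts. The members, lists, tests and alternatives were chosen with earlier results of these data known. Library values are given for called members and, where fewer than 3 were called, those with the 2 smallest p, and fold changes with SE for members with an unadjusted p under 0.05; the others are given by range. Other channel genes are named where called, except some that are not reported here. Protein features were not analysed here.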

Additional observations from a re-analysis of the deposited data

Results flagged for a closer look

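In 8 of 105 groups of 4 libraries (35 genes in 3 groups) 1 library stood apart, with its gap to the nearest library, over the range of the group, above Dixon's 95% limit. Chance alone gives about 1 in 20 groups. In FVB, Kcna1 was low in FVB 3 (gap ratio 0.852, 131.8 against 140.3 to 141.8 CPM), Kcnc1 was low in FVB 4 (0.916, 610.1 against 680.3 to 686.7 CPM) and Dpp6 was high in FVB 2 (0.950, 459.7 against 398.3 to 401.4 CPM). In the saline knockout, Kcnq5 was high in library 2, which is rich in Ttr (0.863, 2.82 against 1.15 to 1.38 CPM), and Kcnk1 was low in library 3 (0.875, 128.2 against 150.9 to 154.2 CPM). In the treated knockout, Cacna1c was high in library 3 (0.874, 90.7 against 69.0 to 71.7 CPM), Kcnc4 was high in the same library (0.862, 48.4 against 43.8 to 44.4 CPM) and Kcnd3 was low in library 2 (0.867, 117.1 against 129.1 to 131.0 CPM). Treated knockout 2 and 3 are also rich in Ttr.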

How the results depend on the processing

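Counts of called members were 2, 1 and 6 for saline knockout against FVB, for poly(I:C) against saline, and for treated knockout against FVB, and no member among those with an unadjusted p under 0.05, each followed in its own comparison, was called with the opposite sign under an alternative. Without the 3 libraries rich in Ttr the counts were 0, 0 and 0 (at an unadjusted p under 0.05 by edgeR, 1 higher and 6 lower, 1 and 2, and 1 and 6). With log2 Ttr as a covariate they were 2, 1 and 1, and without robust estimation 2, 1 and 3. Other settings moved them by no more than 1.5 times, with DESeq2 giving 3, 1 and 7 and limma-voom 2, 1 and 4. Leaving out 1 library gave 0 to 2, 0 to 1 and 0 to 6. For the saline knockout the count was 0 without FVB 4 or saline knockout 3 (8 and 9 lower at an unadjusted p under 0.05 by edgeR), and for the treated knockout against FVB it was 0 without FVB 1 or treated knockout 2 or 4 (8, 8 and 7 lower). With all libraries 12%, 15.5% and 21.3% of all tested genes had an unadjusted edgeR p under 0.05 in the 3 comparisons. The shares of all genes in the alternative fits are not given here. Over all genes, 294, 550 and 1352 were called, against 633, 986 and 1935 by DESeq2, 506, 783 and 1626 without the count filter, 494, 917 and 2123 at an adjusted p under 0.1, and 229, 215 and 556 without the libraries rich in Ttr. Same-numbered deviations correlated between -0.10 and 0.14, and not every library correlated best with its own number. Such weak values cannot decide whether the replicate numbers pair the libraries, because libraries made together need not share their deviations. A replicate block gave 2, 1 and 5 called members, with Cacna1c, not followed under the other settings, in and Kcnc4 and Scn2b out of the last. Depth limits the members of lowest level most, such as Kcnq5 and Kcnmb4.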
